A study of Mus musculus with 9 samples.

Results

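The proliferation genes examined here were Mki67, Top2a, Cdk1, Ccnb1, Ccna2, Birc5, Bub1, Rrm2, Mcm5 and Pcna, a fixed set of 10 of the 55450 annotated genes, chosen by name as a measure of dividing cells in nigral tissue. Their reads were counted in bulk RNA-seq libraries of manually dissected substantia nigra, collected from male mice 5 weeks after injection of a Cre-dependent lentivirus with the Ef1a promoter, with 3 libraries in each of 3 groups. In the CTR group, CX3CR1-CreERT2 mice, in which Cre follows a gene of microglia and other myeloid cells, received a GFP vector (destabilized GFP in the methods, GFP in the labels). In the CX3 group the same driver line received the Synuclein-expressing vector, and in the DAT group mice with Cre in dopaminergic neurons (DAT-Cre) received it. Tamoxifen was given for 4 days to the CX3CR1-CreERT2 mice, so CTR and CX3 shared driver and tamoxifen and differed in the vector, whereas DAT differed from CX3 in driver line and tamoxifen and from CTR in vector, driver line and tamoxifen, which cannot be told apart. The mice are described as 8 weeks old at transduction in the study's text and as 9 weeks old in its methods. The number of animals behind each library was not given in the sources used here, so p-values measure only the spread between libraries, which may be technical.

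These genes fall into phases of the cell cycle. In late G1 and S phase the E2F factors turn on genes for DNA replication, among them Mcm5, a subunit of the helicase that opens the double helix, Pcna, the sliding clamp that holds the polymerase on DNA, and Rrm2, the small subunit of the ribonucleotide reductase that supplies deoxyribonucleotides. In G2 and mitosis a later wave follows, among them Cdk1 and its partner Ccnb1 (cyclin B1), which drive entry into mitosis, Top2a, which untangles the copied chromosomes, Birc5 (survivin), a subunit of the chromosomal passenger complex, and Bub1, a kinase of the spindle checkpoint. Ccna2 (cyclin A2) acts from S phase into G2, and the protein of Mki67 coats mitotic chromosomes and is the standard histological mark of cycling cells. Most cells of the adult midbrain are postmitotic neurons and resting glia, and microglia, oligodendrocyte precursors, endothelial cells and immune cells entering the tissue are among those that can divide. Pcna also serves DNA repair outside S phase.

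The promoters are shown because the late genes are known to be held down in resting cells through a cell cycle homology region. This region (CHR, TTTGAA, with TTCGAA as a variant) often lies near a CCAAT box, which was searched as well. The replication genes are known to be held down through E2F sites (searched as TTTGGCGC and TTTCGCGC). RefSeq promoters on GRCm38.p6 were at hand for 9 of the 10 genes, all but Ccna2, and the 250 bases before the start were searched on both strands. In the sequences below, 5′ to 3′ along the gene, capitals mark every match to these letters. The first 3 belong to genes called higher in CX3 than in CTR, and the last 2 to genes that were not called. The other called genes with a promoter, Ccnb1, Birc5 and Bub1, are not printed and held neither TTTGAA nor TTCGAA.
Top2a (chr11:99024190-99024439, minus strand): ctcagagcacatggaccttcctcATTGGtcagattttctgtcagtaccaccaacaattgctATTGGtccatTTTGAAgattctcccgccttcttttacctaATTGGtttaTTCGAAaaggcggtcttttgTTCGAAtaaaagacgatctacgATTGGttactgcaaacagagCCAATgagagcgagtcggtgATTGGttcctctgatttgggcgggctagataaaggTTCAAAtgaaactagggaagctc
Mki67 (chr7:135716380-135716629, minus strand): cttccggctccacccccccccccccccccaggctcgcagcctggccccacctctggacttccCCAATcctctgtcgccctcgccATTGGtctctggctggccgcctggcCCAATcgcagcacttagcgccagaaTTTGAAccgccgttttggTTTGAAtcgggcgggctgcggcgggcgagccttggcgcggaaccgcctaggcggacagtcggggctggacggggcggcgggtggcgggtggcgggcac
Cdk1 (chr10:69352913-69353162, minus strand): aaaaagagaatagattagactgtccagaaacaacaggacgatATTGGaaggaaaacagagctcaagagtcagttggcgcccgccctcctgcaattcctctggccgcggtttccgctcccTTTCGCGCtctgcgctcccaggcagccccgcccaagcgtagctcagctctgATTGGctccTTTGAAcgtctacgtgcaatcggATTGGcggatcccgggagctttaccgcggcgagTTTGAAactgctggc
Rrm2 (chr12:24708004-24708253, plus strand): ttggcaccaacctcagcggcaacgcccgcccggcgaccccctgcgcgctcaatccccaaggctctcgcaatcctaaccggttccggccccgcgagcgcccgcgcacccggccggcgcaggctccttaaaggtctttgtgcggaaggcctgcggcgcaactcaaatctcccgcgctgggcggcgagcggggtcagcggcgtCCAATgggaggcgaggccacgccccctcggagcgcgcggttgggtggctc
Mcm5 (chr8:75109259-75109508, plus strand): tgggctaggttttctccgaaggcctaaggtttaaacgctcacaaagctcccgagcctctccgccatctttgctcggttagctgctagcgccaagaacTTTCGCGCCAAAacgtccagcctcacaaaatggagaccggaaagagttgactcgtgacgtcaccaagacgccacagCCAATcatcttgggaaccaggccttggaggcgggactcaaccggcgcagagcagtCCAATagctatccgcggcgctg
The Cdk1 window holds 26 bases, and the Rrm2 window 13 bases, that GENCODE places inside the gene, because RefSeq and GENCODE start these genes at different bases. Of the windows not printed, that of Pcna holds 134 such bases, that of Ccnb1 84 and that of Bub1 6.

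Top2a held 6 CCAAT boxes, 2 TTTGAA and 2 TTCGAA elements in its 250 bases, and none of the E2F letters. Mki67 held 3 CCAAT boxes and 2 TTTGAA elements, the latter from 116 to 111 and from 98 to 93 bases before the start. Cdk1 held 3 CCAAT boxes, 2 TTTGAA elements and 1 TTTCGCGC. Mcm5 held 2 CCAAT boxes and, from 153 to 142 bases before the start, 1 stretch in which TTTCGCGC and, on the other strand, TTTGGCGC overlap each other. Ccnb1 and Bub1 held 2 CCAAT boxes each, Rrm2 and Pcna 1 each, and Birc5 had no match to any of the letters. No match overlapped one of another motif. The Pcna match, from 87 to 83 bases before the RefSeq start, 1 CCAAT of Ccnb1, from 67 to 63, and the TTTGAA of Cdk1 from 15 to 10 lie inside the genes as GENCODE places them. CCAAT was thus present in 8 of 9 windows, against 33.8% of all 32851 promoters of the same length, TTTGAA in 3 of 9 against 16.0%, and the E2F letters in 2 of 9 against 0.654%. In the longer list of G2/M genes used below, CCAAT and TTTGAA stood together in 18 of 52 promoters (34.6%), against 4 of 34 (11.8%) in the S phase list and 5.55% of all promoters. A match is a run of letters and not evidence of binding.

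**Figure D1:**
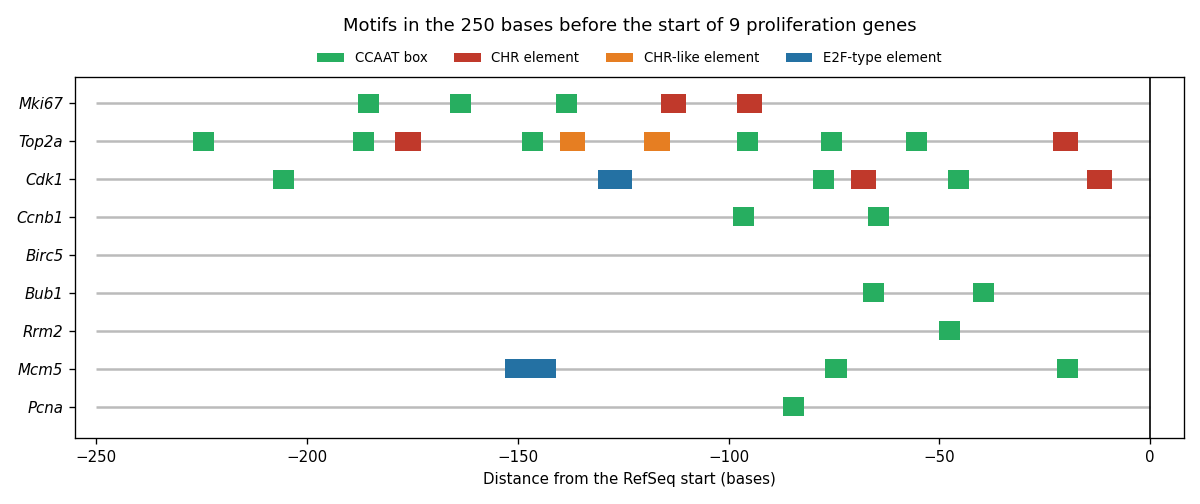
Matches to the CCAAT box, the CHR element (and its variant, labelled CHR-like) and E2F-type letters in the 250 bases before the RefSeq start of 9 proliferation genes, with the distance from the start in bases on the horizontal axis. Top2a, Mki67 and Cdk1 carry the CHR letters, Cdk1 and Mcm5 the E2F letters, and Birc5 none.

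On the genome build GRCm38, as annotated by GENCODE M21, the cycling-cell marker and the mitotic genes were Mki67 (ENSMUSG00000031004.8, chromosome 7 from 135689784 to 135716361), Top2a (ENSMUSG00000020914.17, chromosome 11 from 98992943 to 99024189), Cdk1 (ENSMUSG00000019942.13, chromosome 10 from 69335146 to 69352938) and Ccnb1 (ENSMUSG00000041431.16, chromosome 13 from 100778650 to 100786570). They were joined by Ccna2 (ENSMUSG00000027715.9, chromosome 3 from 36564865 to 36572150), Birc5 (ENSMUSG00000017716.15, chromosome 11 from 117849251 to 117855743) and Bub1 (ENSMUSG00000027379.13, chromosome 2 from 127801122 to 127831865). The replication genes were Rrm2 (ENSMUSG00000020649.11, chromosome 12 from 24708241 to 24714146), Mcm5 (ENSMUSG00000005410.6, chromosome 8 from 75109569 to 75128439) and Pcna (ENSMUSG00000027342.14, chromosome 2 from 132249162 to 132253314). All 10 are protein-coding, and their values are reads on their annotated exons, without reads that overlap another gene.

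Levels are given as CPM, read counts scaled to library size by TMM, a factor that evens out differences in library makeup. Depth was 21592817 to 39475428 reads on genes per library, at which 3 counts, taken as the smallest countable signal, equal 0.0779 to 0.151 CPM, and this floor covers counting error only. All 10 genes lay above it in every library and all passed the filter on low counts, which left 20892 genes to be tested. Together they took 1445 to 3656 reads per library, most of them from Pcna. The differences below were tested with edgeR's quasi-likelihood test in 1 fit over the 3 groups, with Benjamini-Hochberg adjustment over all genes tested, and a gene is called where the adjusted p is below 0.05. Library DAT B stood apart from its group: the squared difference in counts between DAT libraries, relative to that of random sampling, reached 16.5, against 1.46 to 1.79 in CTR and 2.52 to 6.28 in CX3. It was the highest DAT library for 6 of the 10 genes, and the fold changes of the 10 genes and the counts of gene lists that use DAT are given with and without it.

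Per kilobase of exon, which allows levels of different genes to be compared, Pcna was far above the others in every group, at 25.1 ± 1.14 CPM per kilobase in CTR (SD, n = 3, as for all means below). Mcm5 followed at 1.32 ± 0.0510 and Rrm2 at 0.754 ± 0.0489. Ccna2, Top2a and Mki67 lay at 0.488 ± 0.0744, 0.469 ± 0.0209 and 0.458 ± 0.0289 and did not differ beyond their spread. Below them came Birc5 at 0.305 ± 0.0196, Cdk1 at 0.233 ± 0.0627, Ccnb1 at 0.200 ± 0.0413 and Bub1 at 0.130 ± 0.0334, and neighbours in this order lay within their spread. In CX3, Pcna (24.7 ± 0.554) and Mcm5 (1.16 ± 0.102) again led, but Top2a, at 1.09 ± 0.115, came next, within the spread of Mcm5 and of Rrm2 (0.967 ± 0.144). In DAT, Pcna was at 20.4 ± 3.04, Mcm5 at 1.19 ± 0.113 and Bub1, again the lowest, at 0.116 ± 0.0863. The lower 8 genes thus lay near or below 1 CPM per kilobase in all groups, and several rest on few reads: Bub1 had 15 to 21 counts in CTR and 7 to 21 in DAT, and Birc5 9 to 20 in DAT.

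**Figure D2:**
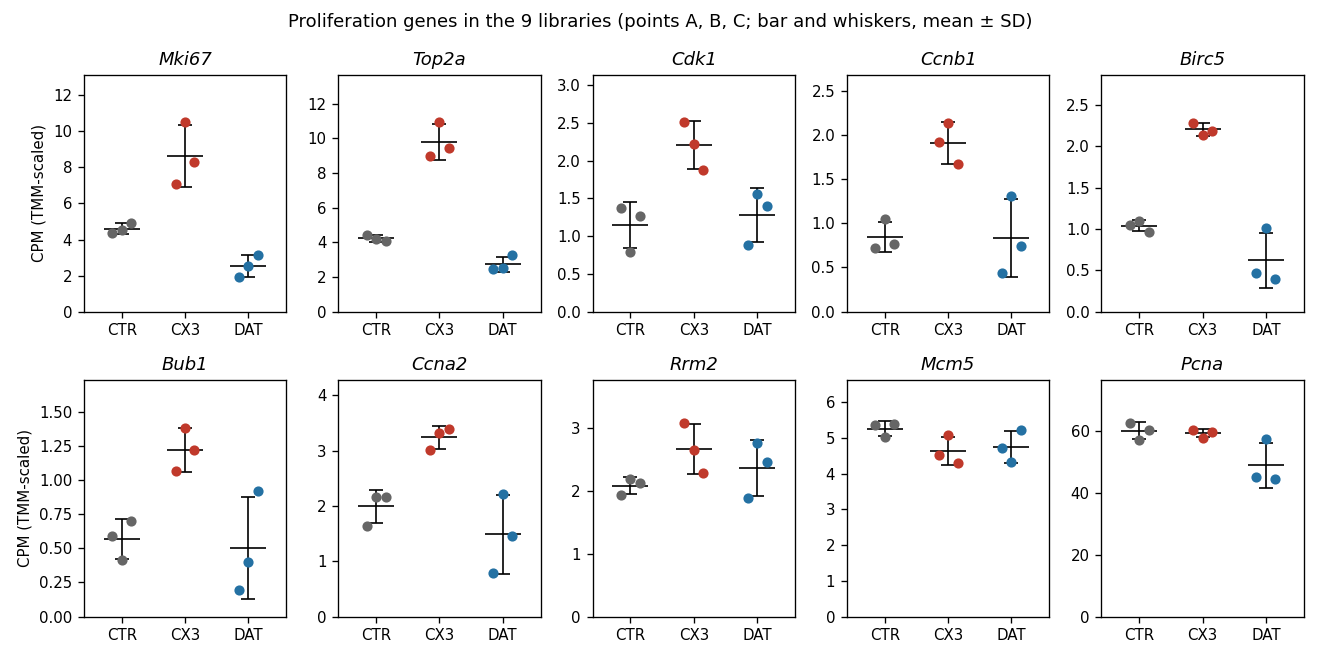
CPM of the 10 proliferation genes in each library (points, A to C from left to right) of the CTR, CX3 and DAT groups, with the group mean and SD as bar and whiskers, on linear axes that start at 0. In 8 panels every CX3 library lies above every CTR library, while Mcm5 and Pcna overlap.

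In CX3 compared with CTR, where driver line and tamoxifen were shared and the vector differed, 7 of the 10 genes rose, 0 fell and 3 were not called. Of all genes tested, 14.0% were called higher and 16.5% lower in this comparison, 30.5% in all. For 8 of the 10 every CX3 library lay above every CTR library, as it did for 23.9% of all genes tested, while 25.4% lay below and 49.3% in all did not overlap. The median log2 fold change of the 10 genes was 0.93, against -0.0033 over all genes tested. None of the 10 was lower at an unadjusted p below 0.05 either, where 8 were higher, and DESeq2 called 7 higher and 0 lower. Of all genes, DESeq2 called 2582 higher and 3250 lower. The share of all genes below the unadjusted threshold is not given, here or in the other comparisons. In bulk tissue more dividing cells, more RNA of these genes per dividing cell and another makeup of the dissected tissue cannot be told apart. Markers of neighbouring tissue differed between these groups, as given below, and their part was not tested.

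Mki67 was at 4.37, 4.53 and 4.93 CPM in the CTR libraries A, B and C and at 7.09, 10.5 and 8.28 CPM in the CX3 libraries. The lowest CX3 library stood above the highest CTR library. Its log2 fold change was 0.90 ± 0.15 (SE), or 1.87-fold, with an adjusted p of 0.000482.

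Among the G2 and mitotic genes, Top2a had the firmest difference. It was at 4.43, 4.18 and 4.07 CPM in CTR and at 8.96, 10.9 and 9.45 CPM in CX3, 2.31-fold higher (log2 fold change 1.21 ± 0.11, adjusted p = 1.52e-06). The groups lay far apart, with both groups tight around their means. Cdk1, the mitotic kinase, was at 1.38, 0.797 and 1.27 CPM in CTR and at 2.52, 2.22 and 1.87 CPM in CX3, 1.94-fold higher (0.96 ± 0.23, adjusted p = 0.00633). Its partner Ccnb1 was at 0.723, 1.04 and 0.767 CPM in CTR and at 1.92, 2.14 and 1.67 CPM in CX3, 2.23-fold higher (1.15 ± 0.27, adjusted p = 0.00484). For neither of this pair did the groups overlap. Birc5 was at 1.05, 1.10 and 0.967 CPM in CTR and at 2.28, 2.14 and 2.19 CPM in CX3, 2.11-fold higher (1.08 ± 0.22, adjusted p = 0.00157). Bub1 was at 0.591, 0.412 and 0.700 CPM in CTR and at 1.06, 1.39 and 1.22 CPM in CX3, 2.17-fold higher (1.12 ± 0.35, adjusted p = 0.0258). Again no CX3 library of either gene was as low as a CTR library. The call of Bub1 was lost when CTR A, CTR B, CX3 B or CX3 C was left out, with adjusted p-values of 0.0671, 0.124, 0.0857 and 0.0610, while its log2 fold change stayed between 0.92 and 1.15 in these fits.

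Ccna2 was at 1.64, 2.17 and 2.17 CPM in CTR and at 3.01, 3.32 and 3.39 CPM in CX3. The groups did not overlap, and the log2 fold change was 0.69 ± 0.22, or 1.62-fold, with an adjusted p of 0.0290. Ccna2 shares 510 of its exon bases (12.5%) with Exosc9, an exosome subunit gene on the opposite strand. In the both-strand counts used here, reads that overlap 2 genes are ambiguous and count for neither. Counts of 1 strand mix the reads of such neighbours, since the reverse strand held 49.8% to 49.9% of the strand-specific counts in every library. Top2a shares 1.35% of its exon bases with the small nucleolar RNA gene Gm23451. The call was lost without any one of CTR A, CTR B, CTR C, CX3 B and CX3 C (adjusted p 0.0619 to 0.125) and in the counts of the forward strand (log2 fold change 0.35, adjusted p = 0.137).

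None of the 3 replication genes was called. Rrm2 was at 1.94, 2.20 and 2.13 CPM in CTR and at 3.09, 2.66 and 2.29 CPM in CX3. The groups did not overlap, but the log2 fold change of 0.36 ± 0.17 had an adjusted p of 0.122 and was not called. Mcm5 was at 5.35, 5.03 and 5.40 CPM in CTR and at 4.52, 5.08 and 4.30 CPM in CX3, with a log2 fold change of -0.18 ± 0.11 and an adjusted p of 0.217. Pcna was at 62.8, 57.3 and 60.4 CPM in CTR and at 60.5, 57.9 and 59.7 CPM in CX3, with a log2 fold change of -0.02 ± 0.08, whose interval of 1.96 SE either side ran from -0.17 to 0.13 (adjusted p = 0.878). Both Mcm5 and Pcna overlapped between the groups, and with 1812 to 2329 reads a library the depth behind Pcna was the largest of the 10. The near-identical pseudogene Pcna-ps2 was counted at 27 to 82 reads a library, so a small share of Pcna reads may have been assigned elsewhere.

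**Figure D3:**
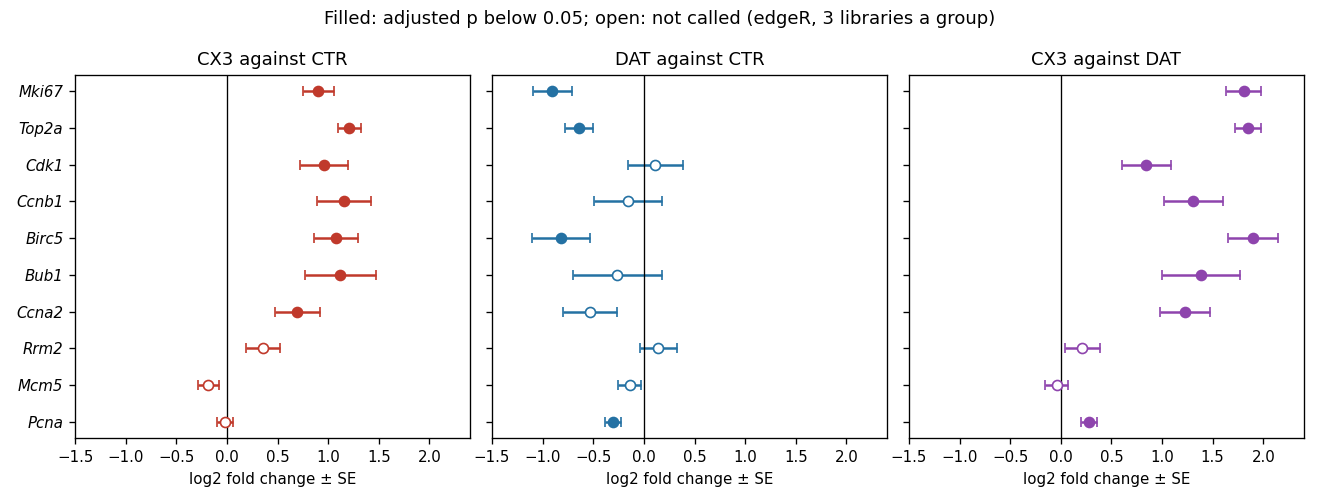
The log2 fold change ± SE of each proliferation gene in the 3 comparisons, with filled points for an adjusted p below 0.05 (edgeR, 3 libraries a group) and open points for genes not called. The 7 genes from Mki67 to Ccna2 lie right of 0 in both comparisons of CX3, and Mcm5 is near 0 in all 3.

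In DAT compared with CTR, 4 of the 10 genes fell, 0 rose and 6 were not called, in a comparison in which 59.9% of all genes tested were called, 32.0% higher and 27.9% lower. The median log2 fold change of the 10 was -0.28, against -0.0038 over all genes. None of the 10 was higher at an unadjusted p below 0.05, where 4 were lower, and DESeq2 called 0 higher and 4 lower, against 6227 higher and 5758 lower of all genes. This comparison uses the same CTR libraries as the one before it.

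Mki67 was at 1.92, 2.51 and 3.16 CPM in the DAT libraries A, B and C, all below the lowest CTR library, with a log2 fold change of -0.90 ± 0.19 (adjusted p = 0.000886). Top2a was at 2.44, 2.51 and 3.25 CPM, also below every CTR library, with a log2 fold change of -0.64 ± 0.14 (adjusted p = 0.00105). Mki67 and Top2a were the only genes of the 10 whose DAT and CTR libraries did not overlap, a smaller share than the 64.1% of all genes tested that did not overlap here (30.6% with DAT lower). Birc5 was at 0.466, 1.01 and 0.395 CPM, with DAT B inside the CTR range, and its log2 fold change was -0.82 ± 0.29 (adjusted p = 0.0222). Pcna was at 45.2, 57.4 and 44.4 CPM, again with DAT B among the CTR values, and fell by 0.30 on the log2 scale (SE 0.08, adjusted p = 0.00438). The call of Birc5 was lost without CTR B, DAT A or DAT C (adjusted p 0.0595, 0.120 and 0.0793).

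The other 6 genes overlapped between DAT and CTR. Ccna2 was at 0.795, 2.21 and 1.45 CPM, with a log2 fold change of -0.53 ± 0.27 (adjusted p = 0.102). Ccnb1 was at 0.439, 1.31 and 0.746 CPM (-0.16 ± 0.33) and Bub1 at 0.192, 0.402 and 0.922 CPM (-0.26 ± 0.44), and the DAT libraries of both spread wider than those of CTR. Cdk1, at 0.877, 1.56 and 1.40 CPM, had a log2 fold change of 0.11 ± 0.27, Rrm2, at 1.89, 2.77 and 2.46 CPM, of 0.14 ± 0.18, and Mcm5, at 4.72, 4.33 and 5.22 CPM, of -0.14 ± 0.11. With DAT B left out, 5 genes fell, Ccna2 being added with a log2 fold change of -0.91 ± 0.24 (adjusted p = 0.00124), while those of Mki67, Top2a, Birc5 and Pcna were -0.93, -0.61, -1.25 and -0.42, and those of Ccnb1, Bub1, Cdk1, Rrm2 and Mcm5, not called, were -0.60, -0.20, -0.050, 0.023 and -0.093. Bub1 was called lower without DAT C, at -1.05 (adjusted p = 0.0455), so its value depends on that library.

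In CX3 compared with DAT, 8 of the 10 genes were higher, 0 were lower and 2 were not called, where 27.6% of all genes tested were called higher and 31.3% lower, 58.9% in all. None of the 10 was lower at an unadjusted p below 0.05, where 8 were higher, and DESeq2 called 8 higher and 0 lower, against 5622 higher and 6168 lower of all genes. The median log2 fold change of the 10 was 1.27, against 0.0103 over all genes. Birc5 was 3.73-fold higher (log2 fold change 1.90 ± 0.25, adjusted p = 1.18e-05), Top2a 3.61-fold (1.85 ± 0.13, adjusted p = 9.27e-09) and Mki67 3.49-fold (1.80 ± 0.18, adjusted p = 5.56e-07). Next came Bub1 at 2.61-fold (1.38 ± 0.38), Ccnb1 at 2.48-fold (1.31 ± 0.29) and Ccna2 at 2.34-fold (1.23 ± 0.25), and then Cdk1 at 1.80-fold (0.85 ± 0.24). Pcna was 1.22-fold higher (0.28 ± 0.08, adjusted p = 0.00657), and these 8 were the genes of the 10 whose CX3 and DAT libraries did not overlap, as was the case for 61.0% of all genes tested (28.8% with CX3 higher). Rrm2 (0.21 ± 0.17, adjusted p = 0.302) and Mcm5 (-0.04 ± 0.11, adjusted p = 0.768) were not called. Without DAT B, 8 of the 10 were again called higher, with log2 fold changes of 2.33 for Birc5, 1.82 for Top2a, 1.83 for Mki67, 1.33 for Bub1, 1.76 for Ccnb1, 1.61 for Ccna2, 1.02 for Cdk1 and 0.41 for Pcna, and Rrm2 and Mcm5 at 0.34 and -0.083 were not called. Cdk1 was not called without DAT A (log2 fold change 0.60, adjusted p = 0.0573). Ccna2 was not called in the forward-strand counts, where Exosc9 reads are mixed in (0.37, adjusted p = 0.0719). Bub1 was called in every fit without 1 library, but its log2 fold change was 0.87 without DAT A and 2.18 without DAT C, so its size and its place in this order depend on those libraries.

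A ratio within a library does not depend on how libraries are scaled, and Pcna, the most counted of the 10, was used as the base after these values had been seen. Top2a had 7.06, 7.28 and 6.73 reads per 100 reads of Pcna in CTR, 14.8, 18.9 and 15.8 in CX3 and 5.39, 4.38 and 7.31 in DAT. Every CX3 library stood above every library of the other groups, while DAT and CTR overlapped, also without DAT B. For Mki67 the ratio was 7.68 ± 0.638 in CTR, 14.6 ± 3.28 in CX3 and 5.25 ± 1.62 in DAT, for Birc5 1.73 ± 0.166, 3.71 ± 0.0592 and 1.22 ± 0.462, and for Mcm5 8.74 ± 0.209, 7.82 ± 0.847 and 9.90 ± 2.16. For Ccna2 and Ccnb1 the ratio was higher in every CX3 library than in every DAT library. For Cdk1 it overlapped, at 3.14 in CX3 C and 3.16 in DAT C, as for Bub1, at 1.76 in CX3 A and 2.08 in DAT C. Rrm2, at 3.48 ± 0.376 in CTR and 4.84 ± 0.676 in DAT, was higher in every DAT library than in every CTR library. Because Pcna was nearly level between CX3 and CTR, these ratios restate the CPM values there. The ratio shows unequal change of the genes and not which of them changed.

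The wider cell cycle was read from the lists commonly used to score cell cycle phase, which hold 54 G2/M genes, 5 of them among the 10, and 43 S phase genes, 3 of them among the 10. Of the 49 other G2/M genes, all tested, 19 were higher and 6 lower in CX3 than in CTR and 24 were not called, with a median log2 fold change of 0.30. Of the 40 other S phase genes, 4 were higher, 5 lower and 31 not called, with a median of 0.05. In DAT against CTR, 4 of the 49 G2/M genes were higher and 17 lower (median -0.25), and 5 of the 40 S phase genes were higher and 14 lower (median -0.19). In CX3 against DAT, 33 G2/M genes were higher and 5 lower (median 0.63), and 18 S phase genes were higher and 6 lower (median 0.28). Without DAT B, 5 of the 49 G2/M genes were higher and 23 lower in DAT against CTR, and 5 of the 40 S phase genes higher and 15 lower. In CX3 against DAT the counts were then 32 higher and 5 lower of the 49, and 17 higher and 4 lower of the 40. With all 9 libraries, 14.0% of all genes tested were called higher and 16.5% lower in CX3 against CTR. These shares were 32.0% and 27.9% in DAT against CTR, and 27.6% and 31.3% in CX3 against DAT. They are the background of the shorter lists below as well, for counts with all 9 libraries. Over the fits without 1 library, that without DAT B among them, 11272 to 13405 genes were called in DAT against CTR. In CX3 against DAT it was 11265 to 13284 genes, and with all 9 libraries 12507 and 12299. The shares by direction without DAT B are not given, for these lists or for the 10 genes.

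**Figure D4:**
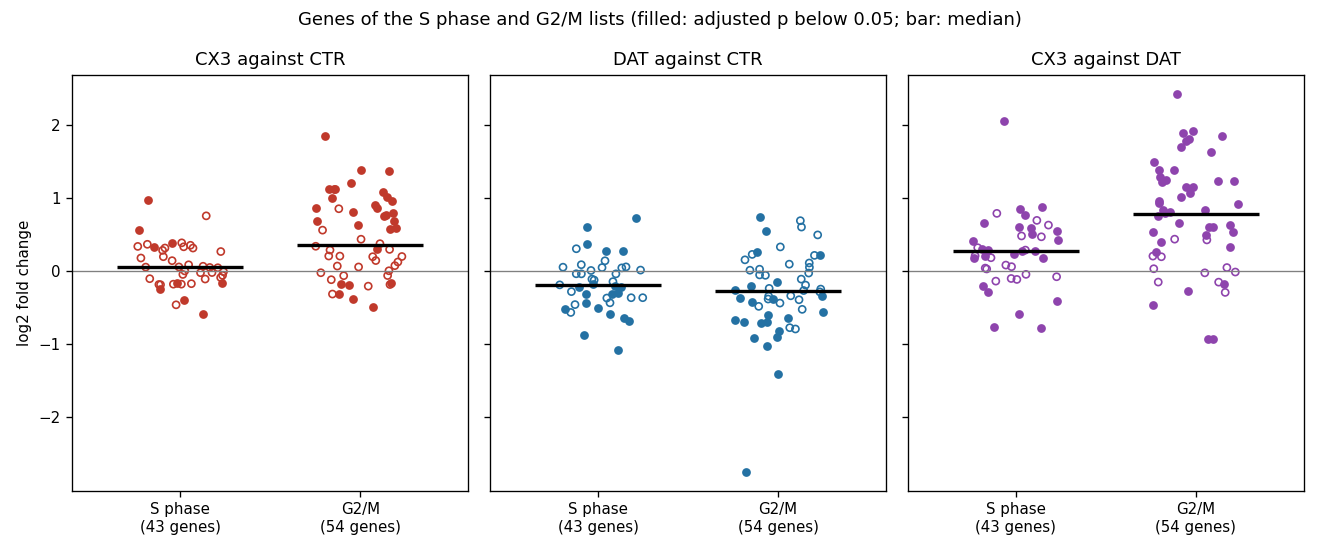
The log2 fold change of each gene of the S phase list (43 genes) and the G2/M list (54 genes) in the 3 comparisons, with filled points for an adjusted p below 0.05, open points for genes not called and a bar at the median. In CX3 against CTR the S phase median is 0.05 and the G2/M median 0.36, both counted with the proliferation genes that the lists hold.

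Among the G2/M genes, Ube2c, the ubiquitin-conjugating enzyme that works with the anaphase-promoting complex, was at 0.507 ± 0.137 CPM in CTR, 1.87 ± 0.157 in CX3 and 0.857 ± 0.461 in DAT. It rose by 1.85 ± 0.33 on the log2 scale in CX3 against CTR (adjusted p = 0.000614). Cdca3 (log2 fold change 1.00 ± 0.27), the mitotic cyclin Ccnb2 (0.87 ± 0.21) and the spindle protein gene Ckap2l (0.87 ± 0.20) rose as well, with adjusted p-values of 0.0128, 0.00568 and 0.00416. In DAT against CTR, Ckap2l fell by 0.92 (adjusted p = 0.00697), and Ube2c, Cdca3 and Ccnb2 were not called (adjusted p 0.207, 0.564 and 0.0967).

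In CX3 against CTR, calls among the 40 other S phase genes went in both directions, 4 higher and 5 lower. These are smaller shares than the 14.0% and 16.5% of all genes tested, as are those of the licensing genes below. The S phase genes named are among those called with the largest change. Mcm4, which sits in the same helicase as Mcm5, was at 17.6 ± 1.37 CPM in CTR, 11.8 ± 0.441 in CX3 and 17.7 ± 0.344 in DAT, a log2 fold change of -0.58 ± 0.07 in CX3 against CTR (adjusted p = 1.73e-05). Pola1, a subunit of DNA polymerase alpha, fell by 0.39 (adjusted p = 0.00259), while Tipin, of the fork protection complex, rose by 0.56 (adjusted p = 1.93e-05) and Gmnn, the licensing inhibitor geminin, by 0.39 (adjusted p = 0.0188). Of the 15 genes of origin licensing and the MCM complex other than Mcm5, 1 rose, Gmnn, and 2 fell, Mcm4 and Mcm3 (log2 fold change -0.35 ± 0.09, adjusted p = 0.0119). In DAT against CTR, 2 of these 15 were higher and 4 lower, and in CX3 against DAT 7 were higher and 3 lower. Without DAT B these counts were 2 and 5, and 7 and 3.

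Of 13 other cyclins and cyclin-dependent kinases, 3 rose in CX3 against CTR and 1 fell. Cdk2, the kinase of S phase entry, was at 4.44 ± 0.329 CPM in CTR and 6.68 ± 0.808 in CX3 (log2 fold change 0.59 ± 0.12, adjusted p = 0.00152), and Cdc25b, the phosphatase that activates Cdk1, rose by 0.31 (adjusted p = 0.00993). Ccnd2, a G1 cyclin, fell by 0.38 (adjusted p = 6.66e-05). In DAT against CTR 3 of the 13 were higher and 4 lower, and in CX3 against DAT 6 were higher and 4 lower, or 3 and 5, and 7 and 4, without DAT B. Of 10 inhibitors of these kinases and pocket proteins, which hold cells out of the cycle, 0 rose and 3 fell in CX3 against CTR: Cdkn1a (p21) by 0.39 (adjusted p = 0.000350), Rbl2 (p130) by 0.26 (adjusted p = 0.00265) and Cdkn1b (p27) by 0.23 (adjusted p = 0.00392). In DAT against CTR 3 of the 10 were higher, Cdkn1b among them (0.20 ± 0.05, adjusted p = 0.00409), and 4 lower, Cdkn1a among them (-0.63 ± 0.07, adjusted p = 1.48e-06), and in CX3 against DAT 5 were higher and 3 lower. Without DAT B these were 3 and 5, and 5 and 3.

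Of 14 E2F and MuvB factors, which control the timing of these genes, 4 rose and 2 fell in CX3 against CTR, 3 were higher and 2 lower in DAT against CTR, and 5 were higher and 3 lower in CX3 against DAT. Without DAT B the counts were 3 higher and 4 lower in DAT against CTR, and 5 higher and 1 lower in CX3 against DAT. Foxm1, the activator of the mitotic genes, was at 1.54 ± 0.170 CPM in CTR, 2.58 ± 0.207 in CX3 and 1.55 ± 0.225 in DAT (log2 fold change 0.74 ± 0.16 in CX3 against CTR, adjusted p = 0.00258). E2f1 (0.72 ± 0.11, adjusted p = 0.000134) and E2f2 (0.55 ± 0.17, adjusted p = 0.0214) also rose, and the MuvB subunit Lin37 fell by 0.38 (adjusted p = 0.00669). Of 9 genes of the spindle checkpoint and passenger complex other than Birc5 and Bub1, 2 rose and 2 fell in CX3 against CTR, 3 were higher and 1 lower in DAT against CTR, and 4 were higher and 3 lower in CX3 against DAT, or 2 and 2, and 4 and 3, without DAT B. Cdc20, the activator of the anaphase-promoting complex, rose by 0.77 (adjusted p = 0.0135), while the checkpoint genes Mad1l1 and Bub3 fell by 0.34 and 0.21 (adjusted p = 0.00231 and 0.0102).

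Among 20624 genes outside the cell cycle and marker lists used here, some ran closely with the mean log2 CPM of the 10 over the 9 libraries. The closest were 5330438D12Rik and Tmem183a (both Pearson r = 0.987), Cinp (0.980), Gm45286 (0.979) and Mpv17l (0.979). Genes of the lists were not compared. Cinp, which encodes a Cdk2-interacting protein, was at 24.3 ± 0.680 CPM in CTR, 28.6 ± 0.695 in CX3 and 22.2 ± 1.63 in DAT. These correlations mostly restate the order of the 3 group means, and 55 genes had an r above 0.95.

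Markers of cell types that can divide also differed between the groups, and their part in the results above was not tested. The summed level of 8 microglial markers was 736 to 745 CPM in CTR, 496 to 505 in CX3 and 480 to 494 in DAT, of which 0 rose and 6 fell in CX3 against CTR and 8 fell in DAT against CTR. Cx3cr1 was at 102 ± 0.900 CPM in CTR, 44.6 ± 0.894 in CX3 and 83.4 ± 4.31 in DAT. By the line names in the methods, CTR and CX3 mice carry Cre in the Cx3cr1 gene itself, and DAT mice do not. For this gene, and the sum that holds it, the driver allele and other differences of DAT cannot be told apart. The 9 T cell markers summed to 74.9 to 76.9, 60.5 to 65.0 and 19.4 to 22.7 CPM, with 5 falling in CX3 and 9 in DAT against CTR. The 8 markers of B lineage and plasma cells summed to 1695 to 1745, 309 to 335 and 76.7 to 90.2 CPM, with all 8 falling in both groups. The 7 markers of oligodendrocyte precursors summed to 569 to 574, 534 to 542 and 692 to 725 CPM, and the 6 endothelial markers to 161 to 164, 220 to 227 and 300.4 to 312 CPM. Of these 5 lists only the endothelial one was higher in CX3 than in CTR, with 4 of 6 genes called higher, and it was higher again in DAT, where 6 of 6 were called higher against CTR. Without DAT B the counts of markers falling in DAT were again 8, 9 and 8 for the first 3 lists, and 6 endothelial markers were again higher. No marker of these lists was at 0.

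**Figure D5:**
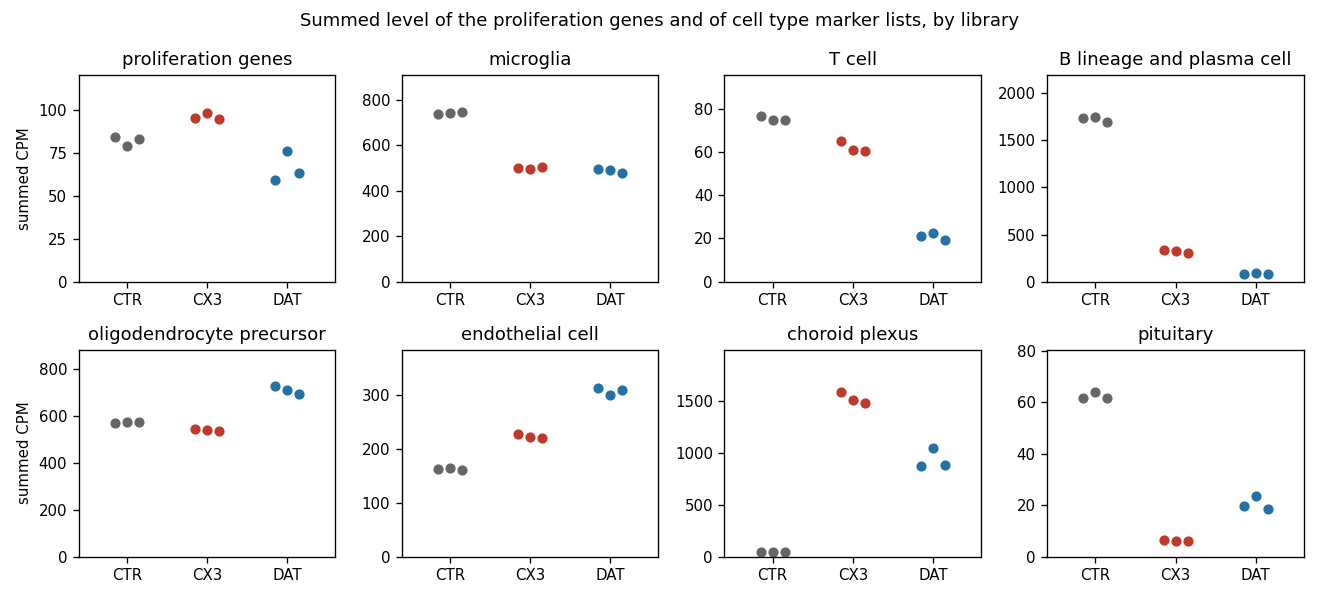
Summed CPM of the 10 proliferation genes and of 7 lists of cell type markers in each library (points, A to C from left to right), on linear axes that start at 0. The proliferation genes sum to 94.3 to 98.3 CPM in CX3, above CTR (78.8 to 84.3) and DAT (59.0 to 76.0), an order that none of the 5 lists of cell types named as able to divide shares.

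Markers of neighbouring tissue moved with the groups too. The 6 choroid plexus markers summed to 46.5 to 47.5 CPM in CTR, 1475 to 1584 in CX3 and 874 to 1044 in DAT. Ttr made up most of this sum in CX3 (1457 CPM) and in DAT (853 CPM). Against CTR, 5 of the 6 were called higher and 0 lower in CX3, as in DAT. In CX3 against DAT, 3 were higher and 2 lower. The lower ones were Kl, at 24.17 CPM in CX3 and 38.02 in DAT, and Clic6, at 14.97 and 22.08. The counts that use DAT were the same without DAT B. The 8 pituitary markers summed to 61.6 to 64.2, 6.12 to 6.47 and 18.5 to 23.6 CPM. The 8 dopaminergic neuron markers, which define the dissected region, summed to 862 to 870, 1046 to 1066 and 676 to 690 CPM, with Slc6a3, the dopamine transporter gene, at 130.0 ± 2.58, 195 ± 2.74 and 91.1 ± 2.52 CPM. By its name in the methods, the DAT-Cre line carries Cre in the Slc6a3 gene itself. For this gene, and the sum that holds it, the driver allele and other differences of DAT cannot be told apart. Among the 8 dopaminergic markers, 6 were called higher and 0 lower in CX3 against CTR, and 7 higher and 0 lower in CX3 against DAT. In DAT against CTR 2 were higher and 4 lower, so the order of the sums was not that of every gene. Without DAT B the counts were 7 and 0 in CX3 against DAT, and 3 and 4 in DAT against CTR. Of the 12 marker lists the dopaminergic one was that whose sums lay in the order of the summed proliferation genes, with CX3 highest and DAT lowest. Pcna made up 73.4% of the summed level of the 10 in CTR, and the means of 6 of the 10 lay in this order, while those of Cdk1, Rrm2, Mcm5 and Pcna did not. The 6 hindbrain granule neuron markers summed to 43.3 to 45.2, 36.3 to 40.1 and 73.3 to 75.3 CPM, the 5 neuroblast markers to 41.5 to 43.9, 36.5 to 40.9 and 36.9 to 38.7 CPM, the 6 astrocyte markers to 5625 to 5640, 3329 to 3580 and 3572 to 3873 CPM, and the 5 erythroid markers to 242 to 267, 94.5 to 108 and 187 to 266 CPM. How far these differences in the makeup of the dissected tissue carry into the proliferation genes was not tested.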

How the data were processed

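Samples were 9 bulk RNA-seq libraries of nigral tissue, 3 each of CTR, CX3 and DAT, grouped by their labels. Per the labels, 1 μg of total RNA with an integrity number of at least 9 went into a stranded mRNA kit and reads of 76 bases. The authors deposited raw counts per gene without normalization, after trimming with Trimmomatic and alignment with STAR to mm10. The columns of the deposited tables are those that STAR writes when it counts genes itself, although featureCounts is the counter named in the methods, and versions were not given in the sources used here. Reads assigned to no gene made up 30.5% to 35.9% of each library and were left out.

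All 55450 identifiers matched GENCODE M21, from which symbols, positions and exon lengths were taken. Counts of both strands together were used, since neither strand dominated. Genes kept by edgeR's filterByExpr were scaled by TMM and tested with edgeR 4.0.16 (glmQLFit, glmQLFTest) in R 4.3.3, all 3 groups in 1 fit, with Benjamini-Hochberg adjustment. The SE is that of the fitted log2 fold change. DESeq2 1.42.0, other scalings, filters, strand counts, a replicate block, fits of only the groups compared and fits without 1 library were run as alternatives, and the code was tested on simulated data. The letters A to C do not pair the libraries by label, and over 9 pairs of libraries with the same letter the deviations from the group means correlated at -0.33 to 0.11, so no block was used.

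The members and gene lists were chosen with earlier results of these data known, so list counts are descriptions. All 10 members were named in each comparison. From the other pathway lists up to 4 genes were named, with the largest change in CX3 against CTR among those called with a mean of at least 1 CPM, and from marker lists the most abundant up to 3, of which only some are printed. The genes most like the members were ranked by Pearson r of log2(CPM + 0.5), among genes outside all lists. Promoters are RefSeq's for GRCm38.p6. Tables were made with Python 3.11.15 and pandas 2.3.3.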

Additional observations from a re-analysis of the deposited data

How the results depend on the processing

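The counts of members called kept their direction and stayed within 1.5 times the value reported in every alternative. Leaving out 1 library at a time gave 5 to 7 members higher in CX3 against CTR, 3 to 5 lower in DAT against CTR and 7 to 8 higher in CX3 against DAT. With the replicate block they were 7, 4 and 8, and with DESeq2 also 7, 4 and 8. Requiring 10 counts in every library removed Birc5 and Bub1 from the test and left 5, 3 and 6. Scaling by library size alone gave a median log2 fold change of all genes of -0.15 in DAT against CTR and 0.20 in CX3 against DAT, with 6 members then called lower in DAT against CTR, and it moved the share of higher calls over all genes from 46.0% to 59.0% in CX3 against CTR, from 53.4% to 37.8% in DAT against CTR and from 46.8% to 66.8% in CX3 against DAT. In the reverse-strand counts Bub1 was not called (log2 fold change 0.98) and Rrm2 was (0.58, adjusted p = 0.0453) in CX3 against CTR, and Birc5 was not called in DAT against CTR (-0.55, adjusted p = 0.319).

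Only genes that were not called changed sign. In CX3 against CTR, the log2 fold change of Pcna was 0.018 with genes of at least 1 count, 0.028 with library size alone, 0.0071 in the reverse-strand counts, 0.0096 without CTR A and 0.00016 without CX3 B, with a range of -0.056 to 0.0096 over the fits without 1 library. In DAT against CTR, Rrm2 was at -0.076 in the forward-strand counts and -0.0028 with library size alone, Cdk1 at -0.033 with library size alone, -0.13 without CTR B and -0.050 without DAT B (range -0.13 to 0.36), Ccnb1 at 0.024 without CTR B and 0.22 without DAT A (range -0.60 to 0.22), and Bub1 at 0.25 without DAT A (range -1.05 to 0.25). In CX3 against DAT, Mcm5 was at 0.17 in the forward-strand counts, 0.030 with at least 10 counts in every library, 0.15 with library size alone, 0.033 without CX3 C and 0.041 without DAT C (range -0.12 to 0.041). The cause was not tested. Bub1 had 7 to 48 reads a library, and this depth limits its precision.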
